A study of Mus musculus with 57 samples.

Results

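The genes examined here are 48 genes of the cell cycle and of DNA replication, picked by name out of the 56860 genes in the count tables of a study of Hoxa5, a Hox transcription factor gene needed for the development of the respiratory and musculoskeletal systems. RNA was sequenced in bulk from dissected mouse embryonic tissues of wt and Hoxa5-/- embryos, in 57 libraries from 7 contexts. By embryonic day (E), the contexts were E10.5 somites, E12.5 somites, E12.5 lung, the lung, trachea and diaphragm of E15.5 embryos, and the interscapular brown fat (iBAT) of E18.5 embryos. Each genotype had 4 libraries per context, except 5 for iBAT and 3 for Hoxa5-/- somites at E10.5. The Hoxa5-/- embryos were homozygous for the Hoxa5tm1Rob null allele, in which a neomycin cassette interrupts the homeobox, so reads from the Hoxa5 exons can still be counted. Mutant and wt embryos were of the 129/Sv background. The somite samples were trunk pieces spanning cervical level C3 to thoracic level T2, and every sample was a mixture of the cell types of its tissue. Trachea, lung and diaphragm were sequenced as single-end reads of 100 bases, and somites and iBAT as paired-end reads of 150 bases at another centre, so tests were run only within each of these sets and levels from different sets are given side by side.

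Cells that divide transcribe these genes in waves. E2F factors, released when cyclin-dependent kinases phosphorylate the retinoblastoma protein, switch on genes for the start of DNA synthesis. Later, the MuvB complex together with B-MYB and FOXM1 switches on the genes of mitosis, and cells that leave the cycle shut both waves off. Organs of the embryo grow mainly by cell division, and the share of dividing cells drops as tissues such as cartilage, muscle and fat differentiate. In bulk RNA, fewer dividing cells and less of each RNA per dividing cell cannot be told apart.

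The 48 members covered 8 roles. Mki67 and Top2a encode the Ki-67 protein that coats mitotic chromosomes and the DNA topoisomerase that untangles them. Ccne1 and Ccne2 encode E-type cyclins, E2f1 and E2f2 activating E2F factors, and E2f8 a repressing one. Cdc6, Cdt1 and Mcm2 to Mcm7 load the replicative helicase on origins of replication, and Gmnn encodes geminin, which blocks Cdt1. Pcna encodes the sliding clamp of the replication fork, and Rrm1, Rrm2 and Tyms make deoxynucleotides. Ccna2, Ccnb1, Ccnb2 and Cdk1 encode the cyclins and the kinase that drive entry into mitosis, and Foxm1 and Mybl2 (B-MYB) the transcription factors named above. Aurka and Plk1 encode mitotic kinases, Bub1, Bub1b and Ttk the spindle checkpoint, and Cdc20 and Ube2c partners of the anaphase-promoting complex. Aurkb, Birc5 and Cdca8 encode the chromosomal passenger complex, Cenpa the histone of centromeres, and Cenpe and Cenpf kinetochore proteins. Kif11, Kif20a, Kif23, Tpx2, Nusap1, Hmmr, Prc1, Ect2 and Anln build the spindle or divide the cell. On GRCm39, the build of the count tables, the members described most closely lie at chr4:135899705-135923368 (E2f2), chr7:37797409-37806959 (Ccne1), chr12:24758240-24764145 (Rrm2), chr13:24935828-24945906 (Gmnn), chr7:135291513-135318090 (Mki67), chr3:134918298-134979372 (Cenpe) and chr1:189372803-189420283 (Cenpf), and counts cover all their exons.

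The promoters of the members, which the choice of the genes did not use, held different motifs in different roles. The RefSeq promoter table (GRCm38.p6, 250 bases before to 50 after each start) had an entry for 40 of the 48 members, and had none for Aurkb, Ccna2, Ccne2, Foxm1, Gmnn, Kif20a, Mcm4 and Tpx2. Both strands were searched for the cell cycle homology region (CHR) that MuvB binds, as TTTGAA or TTCGAA, for the CCAAT box bound by NF-Y, as CCAAT, for E2F sites, as TTTCCCGC, TTTGGCGC, TTTGCCGC or TTTCGCGC, and for the TATA box, as TATAAA. Matches to 1 motif may overlap each other, as pairs of E2F matches do. A CHR was found in 24 of the 40 promoters (60%), against 21.7% of the 27025 genes in the table, and a CCAAT box in 31 (77.5%) against 41.1%. An E2F match was found in 8 (20%) against 2.61%, and a TATA box in 0 against 15.7%. Of the 23 members with a promoter among the G2/M cyclins and factors, mitotic kinases, kinetochore and spindle genes, 18 held a CHR and 1, Cdk1, an E2F match. Of the 15 among the E2F, licensing and fork genes, 4 held a CHR and 7 an E2F match. By role, a CHR was found in 7 of 7 mitotic kinase and checkpoint genes, 6 of 7 spindle genes, 3 of 5 kinetochore genes and 2 of 4 G2/M cyclins and factors. An E2F match was found in 6 of 7 licensing genes, 1 of 4 E2F and cyclin E genes and 0 of 4 fork genes. Promoters of 3 mitotic genes and 2 licensing genes are printed 5′ to 3′ in their gene's direction to show this contrast, with the CHR, CCAAT and E2F matches in capitals.
Cdk1, chr10:69352863-69353162, minus strand: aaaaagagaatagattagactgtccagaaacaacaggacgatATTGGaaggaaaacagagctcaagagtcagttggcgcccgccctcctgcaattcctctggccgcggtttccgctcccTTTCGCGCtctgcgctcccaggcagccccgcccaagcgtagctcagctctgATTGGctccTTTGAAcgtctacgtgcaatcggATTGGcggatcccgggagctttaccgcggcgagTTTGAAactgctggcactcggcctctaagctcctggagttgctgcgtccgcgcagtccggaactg
Plk1, chr7:122159185-122159484, plus strand: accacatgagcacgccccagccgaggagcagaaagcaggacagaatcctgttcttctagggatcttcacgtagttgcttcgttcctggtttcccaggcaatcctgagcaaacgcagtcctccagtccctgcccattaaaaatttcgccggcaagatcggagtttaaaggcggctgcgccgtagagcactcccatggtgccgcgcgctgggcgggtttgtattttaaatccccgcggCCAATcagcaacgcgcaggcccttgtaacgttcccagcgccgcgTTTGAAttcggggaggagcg
Cdc20, chr4:118437294-118437593, minus strand: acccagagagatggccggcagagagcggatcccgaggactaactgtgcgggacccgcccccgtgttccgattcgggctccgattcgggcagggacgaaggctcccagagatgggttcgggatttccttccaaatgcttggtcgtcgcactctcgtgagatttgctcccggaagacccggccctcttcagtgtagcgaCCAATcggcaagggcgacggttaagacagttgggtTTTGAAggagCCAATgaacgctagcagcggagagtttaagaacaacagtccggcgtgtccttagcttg
Mcm5, chr8:75109259-75109558, plus strand: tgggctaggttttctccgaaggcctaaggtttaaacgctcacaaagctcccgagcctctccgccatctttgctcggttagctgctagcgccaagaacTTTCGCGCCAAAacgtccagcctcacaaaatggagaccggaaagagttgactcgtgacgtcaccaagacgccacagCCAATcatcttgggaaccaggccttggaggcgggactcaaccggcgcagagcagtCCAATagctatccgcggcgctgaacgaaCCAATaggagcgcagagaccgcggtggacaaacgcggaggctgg
Mcm6, chr1:128359656-128359955, minus strand: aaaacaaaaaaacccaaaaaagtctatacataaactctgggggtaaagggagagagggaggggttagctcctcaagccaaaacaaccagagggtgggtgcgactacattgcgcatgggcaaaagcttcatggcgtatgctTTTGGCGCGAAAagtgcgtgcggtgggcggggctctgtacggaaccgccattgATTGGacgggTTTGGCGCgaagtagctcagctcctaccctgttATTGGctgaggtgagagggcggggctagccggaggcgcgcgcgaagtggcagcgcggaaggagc
The Plk1 and Cdc20 promoters hold a CHR close to the start and CCAAT boxes upstream of or beside it, with no E2F match. The Mcm5 and Mcm6 promoters hold CCAAT boxes and overlapping E2F matches, and no CHR. The overlapping matches start 153 and 149 bases before the start in Mcm5 and 110 and 106 bases before it in Mcm6. Mcm6 holds a further E2F match between that pair and the start. Cdk1 holds all 3 motifs. A match is a run of letters, and binding was not measured in these data.

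**Figure D1:**
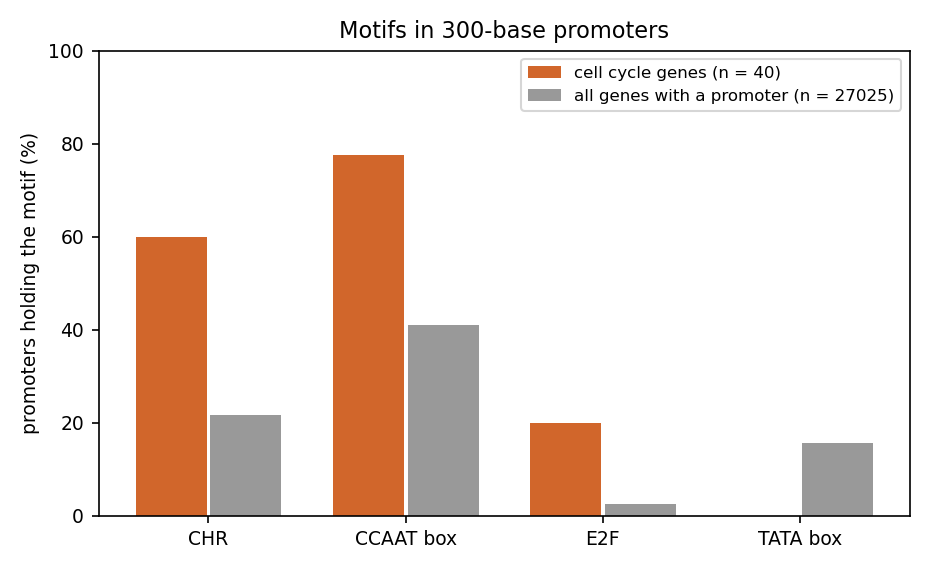
Percentage of promoters of 300 bases that hold each motif, for the 40 members with an entry (orange bars) and for all 27025 genes of the RefSeq table (grey bars). The members' bars are higher for the CHR (60% against 21.7%), the CCAAT box (77.5% against 41.1%) and the E2F match (20% against 2.61%), and at 0 for the TATA box (against 15.7%).

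The libraries held 18369905 to 72991481 counts in genes, and the lowest count of any member in any library was 42. Hoxa5 itself was lower in the Hoxa5-/- libraries in every context with no overlap, with a fitted log2 fold change of -0.92 in somites at E10.5 and of -1.60 to -1.94 in the other contexts. Defining markers of the labelled tissues were present. The 8 skeletal muscle markers summed to 13336 to 19503 TPM in wt diaphragm and the 8 brown adipocyte markers to 12574 to 18985 TPM in wt iBAT. The 6 lung epithelium markers summed to 4007 to 9508 TPM in wt lung at E15.5, and all 8 somite markers were above 1 TPM in somites. The 6 tracheal epithelium markers were all above 1 TPM in wt trachea. Their sum of 654 to 1103 TPM there did not set it apart from wt lung at E15.5, at 845 to 1079 TPM. Libraries that stood apart included Hoxa5-/- lung at E15.5 replicate 4, in which the ribosomal RNA gene Rn18s-rs5 took 19.7% of the TPM. Hoxa5-/- lung at E12.5 replicate 1 had an erythroid marker sum of 117060 TPM against 16337 to 22569 in the other 3. Replicate 3 of the diaphragm was high in hepatocyte markers in both genotypes, at 10083 TPM in wt and 12319 in Hoxa5-/-. Hoxa5-/- diaphragm replicate 4 was high in them as well. In iBAT, mitochondrial genes took 21.9% to 27.1% of the TPM, against 1.15% to 9.27% elsewhere. The study's methods call the libraries biological replicates from embryos of each genotype, and litters are not given in the sources used here, although the iBAT sample names carry a leading number that recurs in both genotypes.

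The level of the 48 genes fell into 3 tiers. As a single value per library, the mean of log2(TPM + 1) over the members (TPM is a share of all transcripts in a library, corrected for transcript length) was 6.95 ± 0.07 in wt somites at E10.5, 6.92 ± 0.07 in lung at E12.5 and 6.90 ± 0.10 in lung at E15.5 (SD, n = 4 each). The middle tier held somites at E12.5 with 6.16 ± 0.04, trachea with 6.09 ± 0.13 and diaphragm with 6.06 ± 0.28 (SD, n = 4 each). iBAT was lowest, at 3.61 ± 0.24 (SD, n = 5). Within a tier the wt libraries of each context overlapped those of the others, while the tiers did not overlap in wt. The distance to the lowest tier depended on the scale: on log2 CPM with trimmed-mean normalisation (TMM) wt iBAT was at 4.60 and wt somites at E12.5 at 6.19, a difference of -1.59, against -2.55 on TPM. On the same scale wt diaphragm was at 6.50 ± 0.25 and wt trachea at 6.19 ± 0.12 (SD, n = 4 each), a difference of 0.31 against -0.03 on TPM. The Hoxa5-/- means were 6.98 ± 0.13 in somites at E10.5 (n = 3), 6.84 ± 0.16 and 6.78 ± 0.25 in the earlier and later lung, 6.18 ± 0.04 in somites at E12.5, 6.22 ± 0.20 in trachea and 6.19 ± 0.20 in diaphragm (n = 4 each), and 3.66 ± 0.44 in iBAT (n = 5). The tiers of the mutant means were the same. Hoxa5-/- lung at E15.5 replicate 4, the library rich in Rn18s-rs5, scored 6.42 on TPM but 7.09 on the log2 CPM scale with trimmed-mean normalisation, inside the 6.91 to 7.17 of the other lung libraries at E15.5 on that scale.

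**Figure D2:**
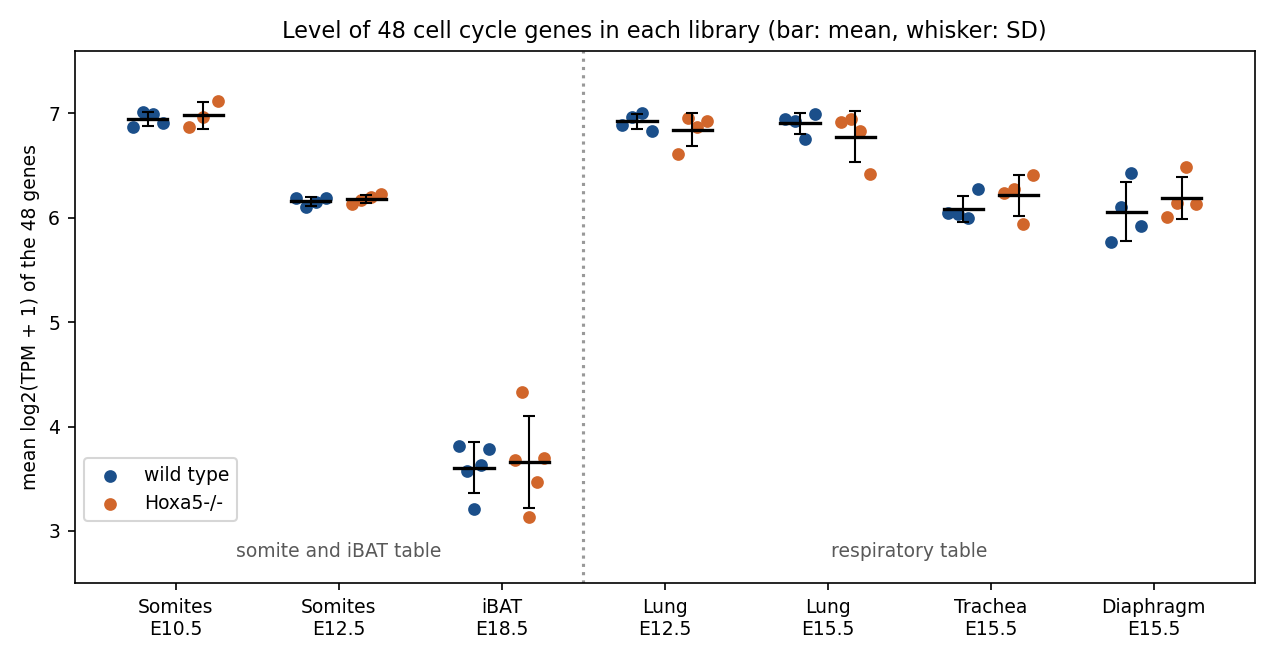
Mean log2(TPM + 1) over the 48 members in each of the 57 libraries, by context and genotype. The points are libraries, the bars group means and the whiskers SD: somites at E10.5 and both lung stages lie at about 7, trachea, diaphragm and somites at E12.5 at about 6, and iBAT at 3.61 in wt and 3.66 in Hoxa5-/-.

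Most members shared this pattern, and a few did not. By wt group means, 20 members were highest in somites at E10.5, 13 in lung at E12.5, 13 in lung at E15.5 and 2 in the diaphragm, and 46 were lowest in iBAT. Top2a was typical, with 400.3, 429, 414 and 449 TPM in wt somites at E10.5, 319, 329, 303 and 353 TPM in lung at E15.5, 170.4, 160.4, 169.8 and 205 TPM in trachea and 29.1, 26.6, 17.1, 25.1 and 30.6 TPM in iBAT. No library of these 4 groups overlapped with another group. E2f2 and Ccne1 were the members highest in the diaphragm, with 55.1, 56.2, 77.3 and 57.7 TPM for E2f2 and 102, 156, 164 and 133 TPM for Ccne1 in the 4 wt libraries. E2f2 stayed between 14.8 and 31.3 TPM in all other wt libraries except lung at E15.5 replicate 3, at 44.1 TPM. Gmnn was lowest in the trachea, at 45.96, 39.3, 35.6 and 44.1 TPM, and its 117, 98.3, 90.3, 110.5 and 104 TPM in iBAT lay above every wt library of trachea, diaphragm and lung at E15.5 and overlapped with lung at E12.5. The ratio of the highest to the lowest context mean had a median of 15.4 over the 48 genes and ran from 3.30 to 29.6.

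In wt somites, the division and replication genes fell together from E10.5 to E12.5. By edgeR's quasi-likelihood test (Benjamini-Hochberg adjusted p under 0.05, at least 1.5-fold), 41 of 48 members fell and 0 rose, when 18.4% of 19773 tested genes fell and 24.1% rose. The median log2 fold change was -0.86 over the members and -0.04 over all genes. DESeq2 also called 41. All 7 mitotic kinase and checkpoint genes, all 6 of the Cdk1 group and all 4 fork genes fell, as did 7 of 9 licensing genes, 8 of 9 spindle genes, 5 of 6 kinetochore genes and both chromosome markers, but only 2 of the 5 E2F and cyclin E genes.

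The largest fall was that of Rrm2, the regulated subunit of ribonucleotide reductase. Rrm2 was at 480.3, 530.0, 514 and 445 TPM at E10.5 and 155, 149, 156 and 159 TPM at E12.5 in wt. The stages were far apart, and the fitted log2 fold change was -1.74 (SE 0.08, adjusted p = 9.3e-10). Gmnn, which keeps origins from being licensed again, was at 180.0, 184, 139 and 176 TPM and then 69.3, 68.8, 62.6 and 61.8 TPM (log2 fold change -1.45, SE 0.11). Bub1, a checkpoint kinase, was at 131, 151, 128 and 135 TPM and then 58.6, 49.9, 52.2 and 54.3 TPM (log2 fold change -1.42, SE 0.09). In each of these genes every E12.5 library lay below every E10.5 library. Ccnb1 (-1.41), Ect2 (-1.40), Mcm7 (-1.35), Pcna (-1.30) and Cenpf (-1.28) fell by similar amounts, and Top2a (-1.14), E2f1 (-0.85), Mcm2 (-0.80), Foxm1 (-0.71), Plk1 (-0.69), Cdk1 (-0.70), Kif11 (-0.88) and Mki67 (-0.66) by less on the log2 scale. The 7 members that did not pass were Ccne1 (-0.07), E2f2 (-0.10), E2f8 (0.18), Cdt1 (-0.19), Mcm6 (-0.28), Anln (-0.41) and Aurkb (-0.54). Ccne1 stood at 104, 110.3, 101 and 100.0 TPM at E10.5 and 109.6, 115, 97.7 and 92.7 TPM at E12.5, so its libraries overlapped.

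Hoxa5-/- somites gave nearly the same picture. Of 48 members 38 fell and 0 rose, when 14.7% of 19632 genes fell and 22.2% rose, with a median log2 fold change of -0.89 over the members and -0.02 over all genes. In 37 members the fall passed in both genotypes, 90.2% of the 41 in wt and 97.4% of the 38 in Hoxa5-/-. The wt list alone held Ccne2, Cdk1, Nusap1 and Tyms, and the Hoxa5-/- list alone Aurkb. Rrm2 was at 432, 497 and 597 TPM and then 155, 155, 163 and 175 TPM in Hoxa5-/- (log2 fold change -1.67, SE 0.11). Cdk1 was at 96.7, 96.4 and 111 TPM and then 82.04, 76.1, 74.8 and 78.4 TPM in Hoxa5-/-, where its log2 fold change of -0.40 (SE 0.07) stayed under the 1.5-fold minimum. The wt Cdk1 libraries were at 122, 124, 96.2 and 114 TPM and then 76.00, 74.4, 71.5 and 73.8 TPM. Whether such differences between the genotypes pass a test of their own is given with the interactions.

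Of 123 further genes of the same pathway, 10 rose and 77 fell in wt somites, with a median of -0.70 on the log2 scale. Those that rose included 4 of the CDK inhibitors, which hold cells out of the cycle: Cdkn1c, mean 2479 against 442 TPM (log2 fold change 2.43), Cdkn1a, 75.2 against 15.9 TPM (2.19), Cdkn2c (1.90) and Cdkn2b (1.83). Of the 34 replisome genes 25 fell, among them Mcm10 (-1.44) and Fen1 (-1.35), and of 28 other mitotic genes 25 fell, among them Mad2l1 (-1.43). In Hoxa5-/- somites 9 rose and 67 fell, and Cdkn1c (2.06) and Cdkn1a (1.86) again rose. Markers of other cell types moved with stage as well. In wt somites, cartilage markers summed to 183 to 267 TPM at E10.5, with 3 of 6 above 1 TPM, and to 1919 to 2783 TPM at E12.5, with 6 of 6, and skeletal muscle markers to 354.5 to 619.5 TPM and 3272 to 4446 TPM. Neural markers went the other way, from 776 to 1244 TPM with 8 of 8 above 1 TPM to 165 to 406 TPM with 4 of 8, and erythroid markers summed to 10611 to 21144 TPM and 8571 to 13174 TPM. Their part in the fall of the members was not tested.

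**Figure D3:**
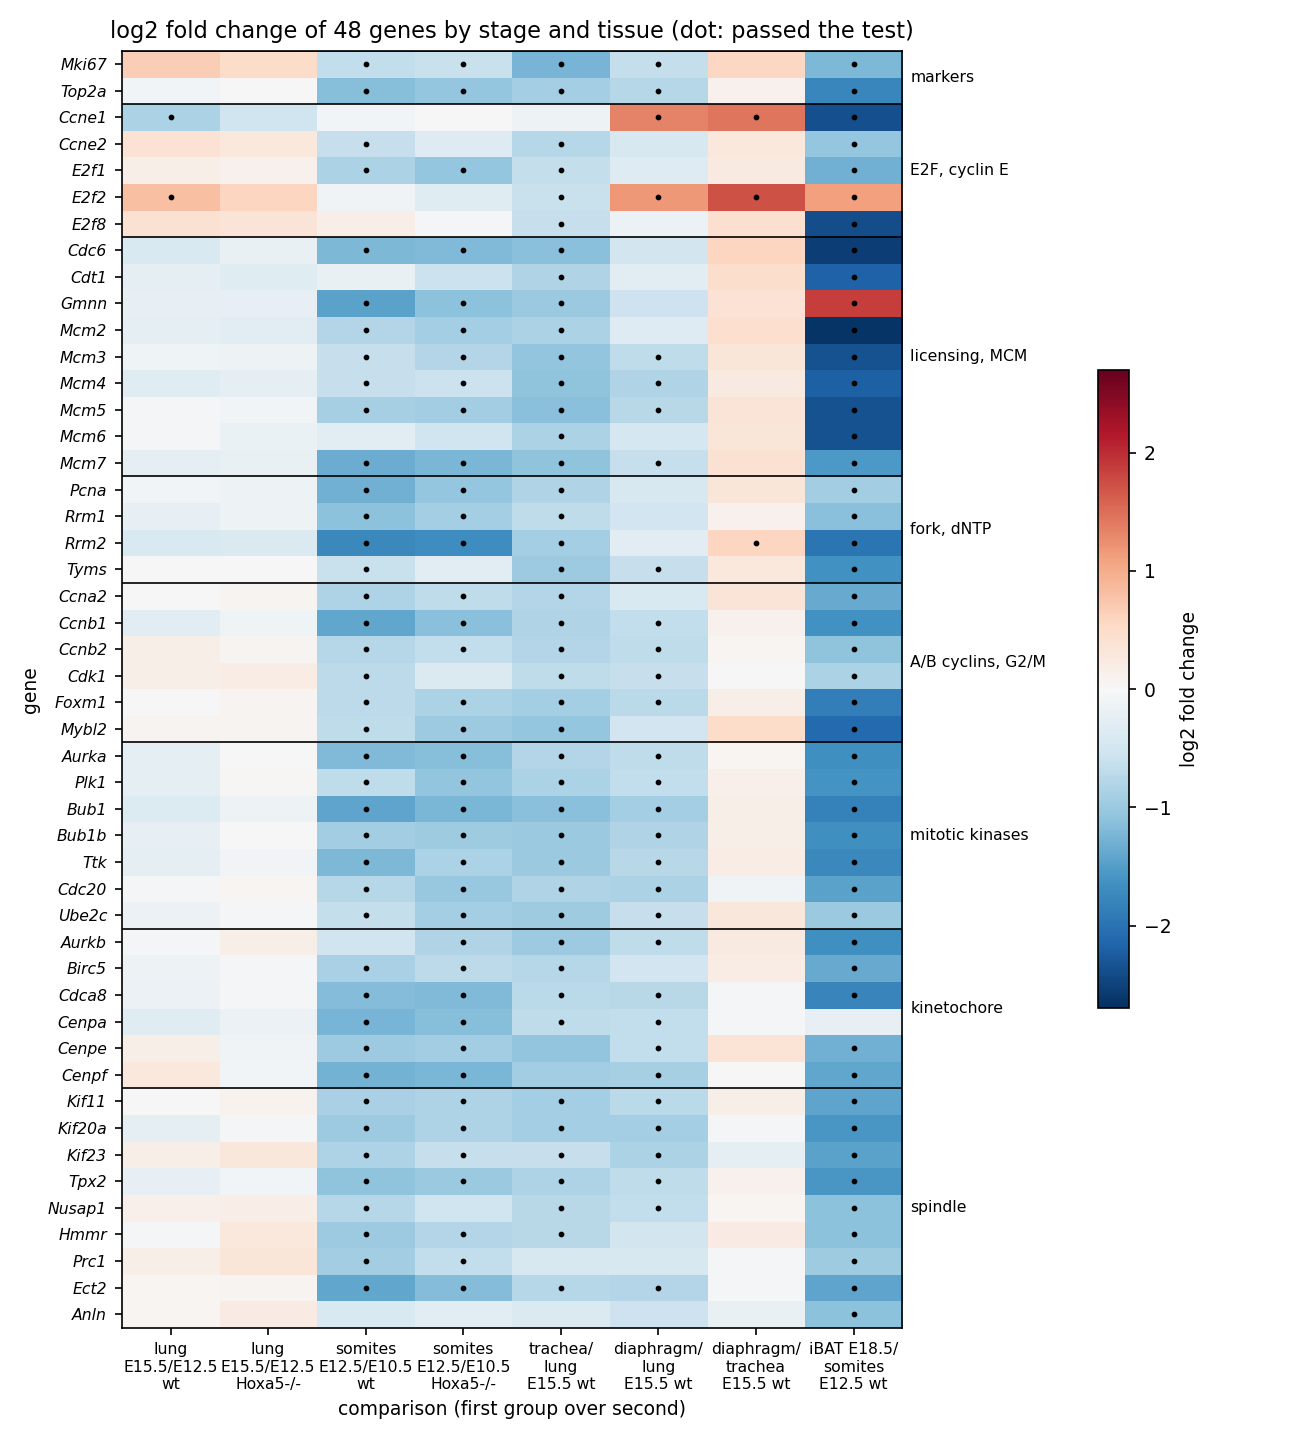
Fitted log2 fold change of each of the 48 members, grouped by role, in the comparisons between stages and tissues, with a dot where the change passed the test. The somite columns and the trachea column are lower in nearly every role, in the lung columns only E2f2 and Ccne1 carry a dot, both in wt, and the iBAT column is lower in all but Gmnn and E2f2.

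In lung few of the 48 genes passed the test between E12.5 and E15.5. In wt lung 1 member rose, E2f2, and 1 fell, Ccne1, when 15.4% of 18158 genes rose and 9.15% fell, and the median log2 fold change was -0.06 over the members and -0.01 over all genes. E2f2 was at 18.3, 21.5, 19.9 and 14.8 TPM at E12.5 and 29.96, 31.3, 44.1 and 29.9 TPM at E15.5 (log2 fold change 0.82, SE 0.15, adjusted p = 0.0014, edgeR). Ccne1 was at 118, 109.36, 131 and 116 TPM and then 72.6, 68.5, 50.8 and 77.6 TPM (log2 fold change -0.85, SE 0.11, adjusted p = 0.00016, edgeR). Neither gene's stages overlapped, as was so for 21 of 48 members and 47.4% of all tested genes. An unadjusted p under 0.05 was reached by 31 members, against 56.7% of all genes. Rrm2 stood at -0.42, Cdc6 at -0.41, E2f8 at 0.40 and Ccne2 at 0.39 on the log2 scale, all under the 1.5-fold minimum. Mki67 had the larger log2 value of 0.67 with a wide error (SE 0.27, adjusted p = 0.065, edgeR), which rested on the 256, 323, 262 and 102 TPM of the E12.5 libraries. Its 4th E12.5 library lay far under the other 3, and Mki67 stood at 0.42 without it and at 0.88, past the test, without the 2nd.

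Hoxa5-/- lung had 0 of 48 members past the test between the stages, when 12.7% of 18207 genes rose and 7.24% fell. An unadjusted p under 0.05 was reached by 19 members, against 45.02% of all genes, and DESeq2 called 0. E2f2 (0.58) and Ccne1 (-0.53) had adjusted p-values of 0.022 and 0.028 but missed the fold minimum. Ccne1 was at 65.6, 115, 119 and 122 TPM at E12.5 and 68.7, 90.7, 60.2 and 56.97 TPM at E15.5, and the first E12.5 library, the one rich in erythroid RNA, was the low one. Without it Ccne1 (-0.67) and E2f2 (0.70) both passed. E2f2 also passed without Hoxa5-/- lung at E15.5 replicate 1 (0.60), replicate 2 (0.61) or replicate 4 (0.68), and Ccne1 without replicate 2 (-0.63). Mki67 (0.74) passed without Hoxa5-/- lung at E12.5 replicate 2.

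Of the 123 pathway genes 7 rose and 5 fell in wt lung. Cdkn2b (log2 fold change 3.26), Cdkn2c (2.27, mean 45.0 against 9.06 TPM) and Cdkn1a (1.05), all CDK inhibitors, rose, and the D-type cyclins Ccnd2 (-0.94) and Ccnd3 (-0.59) fell. In Hoxa5-/- lung Cdkn2b (2.68) and Cdkn2c (2.08) rose and Ccnd2 (-0.86) fell. Erythroid markers summed to 16978 to 32395 TPM in wt lung at E12.5 and 265 to 1961 TPM at E15.5, and lung epithelium markers to 776 to 916 TPM and 4007 to 9508 TPM. Their part in these values was not tested.

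At E15.5, the members were lower in trachea than in lung. In wt embryos 43 of 48 were lower in trachea and 0 higher, when 10.1% of 19340 genes were lower and 20.1% higher, and all 48 fitted values were negative. The median log2 fold change was -0.85 over the members and 0.02 over all genes. All 9 licensing genes (median -1.08), all 4 fork genes, all 6 of the Cdk1 group and all 7 mitotic kinase and checkpoint genes were lower. Mcm5, a subunit of the MCM helicase, was at 140.3, 109.9, 91.8 and 122 TPM in trachea and 280.0, 259.8, 196 and 257 TPM in lung (log2 fold change -1.13, SE 0.14, adjusted p = 0.00019, edgeR). Bub1 was at 39.2, 46.2, 49.1 and 63.4 TPM in trachea and 105, 101, 94.1 and 121 TPM in lung (-1.12, SE 0.14). Cdk1 was at 115, 97.7, 104 and 108.97 TPM in trachea and 171, 169, 152 and 172 TPM in lung (-0.68, SE 0.07). No trachea library of these 3 genes reached the lowest lung library. The tissues did not overlap for 47 of 48 members, against 45.0% of all tested genes. Cdc6 (-1.12), Mcm7 (-1.09), Mcm4 (-1.09), Top2a (-0.92), E2f1 (-0.65) and E2f2 (-0.59) were lower as well.

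The 5 members that did not pass between trachea and lung were Ccne1 (-0.15), Anln (-0.39), Prc1 (-0.43), Cenpf (-0.94, adjusted p = 0.088, edgeR) and Cenpe (-1.08, adjusted p = 0.072). The last 2, and Mki67 (-1.25, SE 0.44, adjusted p = 0.041), depended on wt trachea replicate 1. Mki67 was at 37.9, 195, 191 and 239 TPM in the wt trachea libraries and 387, 385, 373 and 399 TPM in lung. Without the low library Mki67 stood at -0.92 (adjusted p = 0.000106), Cenpe at -0.74 (adjusted p = 0.00051) and Cenpf at -0.62 (adjusted p = 0.00036). Mki67 failed the threshold, at an adjusted p of 0.062 to 0.087 (edgeR), when any 1 of 6 of the other 7 libraries was left out. The labels do not pair trachea with lung libraries, and the test above did not pair them. Same-numbered wt libraries correlated at 0.11 to 0.45, so a fit with the replicate as a block was also run. In it Cenpe also passed, at -1.30 (adjusted p = 0.039, edgeR), and E2f2 missed the fold minimum, at -0.58. Of the 123 pathway genes 7 were higher and 70 lower in trachea. Cdkn1a, mean 52.97 against 9.30 TPM (log2 fold change 2.48), Ccnd2 (1.17) and Cdkn1c (1.16) were higher, and Cdk4 (-0.80) lower. Cartilage markers summed to 1199 to 1790 TPM in wt trachea and 42.6 to 70.9 TPM in lung, skeletal muscle markers to 2069 to 4045 TPM and 149.6 to 234 TPM. Their part in the lower members was not tested.

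The diaphragm differed from lung in a way that separated E2f2 and Ccne1 from the other members. Against the same wt lung libraries at E15.5 as the trachea, 29 of 48 members were lower and 2 higher, when 15.6% of 18984 genes were lower and 20.9% higher, with medians of -0.65 over the members and -0.01 over all genes. Ccne1, the cyclin that starts S phase, was at 102, 156, 164 and 133 TPM in diaphragm and 72.6, 68.5, 50.8 and 77.6 TPM in lung (log2 fold change 1.34, SE 0.15, adjusted p = 6e-05, edgeR). E2f2 was at 55.1, 56.2, 77.3 and 57.7 TPM in diaphragm and 29.96, 31.3, 44.1 and 29.9 TPM in lung (1.17, SE 0.15, adjusted p = 0.00015). Every diaphragm library of these genes lay above every lung library. In either direction, the tissues did not overlap for 43 of 48 members, against 63.6% of all tested genes. All 7 mitotic kinase and checkpoint genes were lower, among them Bub1 at 32.7, 47.3, 61.9 and 39.5 TPM in diaphragm (-0.92, SE 0.16) and Cdc20 at 129, 159, 194 and 128 TPM in diaphragm and 366, 346, 302 and 345 TPM in lung (-0.86, SE 0.11). Kif20a, a cytokinesis kinesin, was at 44.1, 56.96, 69.3 and 51.04 TPM and 129, 128, 114 and 141 TPM (-0.91, SE 0.11). Part of that value is uncertain, because 29.3% of the exon bases of Kif20a are shared with Cdc23 and the strand setting of the counting is not given in the sources used here. Cenpf (-0.89), Kif23 (-0.84), Bub1b (-0.81) and Mcm4 (-0.80) were also lower, while only 4 of 9 licensing genes and 1 of 4 fork genes were. Rrm2 (-0.28), Mcm2 (-0.35), Cdt1 (-0.28) and E2f8 (-0.15) did not pass.

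The diaphragm libraries also varied among themselves. The lowest wt score was 5.77 in replicate 1 and the highest 6.43 in replicate 3, the library with the most hepatocyte RNA, and the number of members called was 25 without replicate 1 and 38 without replicate 3. When libraries were scaled to their totals, the median of all genes moved to -0.25, and 2 members were then higher and 43 lower than in lung. Relative to that shift the member median was -0.63, and it was -0.64 with the usual scaling. The 123 pathway genes had 9 higher and 49 lower, with Cdkn1a at a mean of 294 against 9.30 TPM (log2 fold change 5.30), Cdkn1c (2.90), Rb1 (2.67) and Ccnd3 (1.63) higher, and Cdkn2b (-1.80) and Ccnd1 (-1.60) lower. Skeletal muscle markers summed to 13336 to 19503 TPM in wt diaphragm against 149.6 to 234 TPM in lung, and hepatocyte markers to 1787 to 10083 TPM, with 8 of 8 above 1 TPM, against 4.71 to 48.7 TPM, with 4 of 8. Their part in these values was not tested.

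Few members passed the test between diaphragm and trachea. Against trachea, 3 of 48 members were higher in wt diaphragm and 0 lower, when 14.1% of 19730 genes were higher and 18.4% lower, and an unadjusted p under 0.05 was reached by 17 members, against 55.1% of all genes. DESeq2 called 4. The 3 were E2f2 (log2 fold change 1.71, SE 0.12), at 55.1, 56.2, 77.3 and 57.7 TPM against 24.1, 19.4, 24.8 and 23.6 TPM, Ccne1 (1.44, SE 0.15), at 102, 156, 164 and 133 TPM against 75.8, 55.9, 50.7 and 67.8 TPM, and Rrm2 (0.59, SE 0.14). Diaphragm and trachea libraries did not overlap for 5 of 48 members, against 54.0% of all tested genes. E2f2 and Ccne1 did not overlap between the tissues. Rrm2 did, at 111, 141, 197 and 131 TPM and 129.8, 114, 106 and 121 TPM, and it fell short of the fold minimum without diaphragm replicate 3 (0.48), without trachea replicate 2 (0.58) or 3 (0.55), and with totals scaling (0.37). The member median was 0.21 and that of all genes -0.04, and totals scaling moved them to -0.01 and -0.26. Of the pathway genes, 10 were higher and 3 lower than in trachea, with Cdkn1a (2.77), Rb1 (2.33) and Cdkn1c (1.70) among the higher and Ccnd1 (-1.69), Ccnd2 (-1.54) and Nek2 (-0.77) the lower.

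Brown adipose tissue at E18.5 had the lowest levels, here set against the wt somites at E12.5 of the same sequencing set, which differ from it in stage as well as tissue. Of 48 members 45 were lower and 2 higher, when 35.3% of 19369 genes were lower and 31% higher. The median log2 fold change was -1.56 over the members and -0.16 over all genes. Licensing genes had the lowest median of any role, -2.34, with 8 lower and 1 higher, while the 7 mitotic kinase and checkpoint genes had a median of -1.65. Mcm2 was at 7.39, 6.33, 4.63, 7.43 and 8.26 TPM in iBAT and 96.3, 97.8, 98.2 and 102 TPM in somites (log2 fold change -2.66, SE 0.10). Cdc6 was at 2.13, 1.82, 1.21, 2.26 and 2.55 TPM in iBAT and 28.4, 24.96, 27.8 and 25.2 TPM in somites (-2.54, SE 0.14). Ccne1 was at 9.52, 9.09, 9.29, 8.19 and 6.93 TPM against 109.6, 115, 97.7 and 92.7 TPM (-2.37, SE 0.11). Every iBAT library of these genes lay far below every somite library. In either direction, iBAT and somites did not overlap for 47 of 48 members, against 81.4% of all tested genes. E2f8 (-2.39), Mcm5 (-2.36) and Mcm3 (-2.34) fell by similar amounts, and Top2a (-1.77), Mki67 (-1.21), Pcna (-0.94) and Cdk1 (-0.86) by less.

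Gmnn and E2f2 were the members called higher in iBAT by the fit. Gmnn was at 117, 98.3, 90.3, 110.5 and 104 TPM in iBAT and 69.3, 68.8, 62.6 and 61.8 TPM in somites, with no overlap (log2 fold change 1.87, SE 0.08). E2f2 was at 20.8, 20.6, 19.9, 26.7 and 23.6 TPM and 24.6, 26.4, 23.4 and 21.9 TPM, which overlap. On TPM its mean was not higher in iBAT, although the fitted log2 fold change was 1.10 (SE 0.10). The scale matters in this tissue: with library totals the median of all genes was -0.80, Gmnn stood at 1.22, E2f2 at 0.45 without passing, and 46 members were lower and 1 higher. The member median relative to that of all genes was -1.39 with the usual scaling and -1.40 with totals. Cenpa was the member that did not pass, at -0.21 (SE 0.08, adjusted p = 0.029, edgeR), though its mean TPM was 17.6 in iBAT and 47.2 in somites. Of 123 pathway genes 10 were higher and 80 lower, including all 28 of the other mitotic genes. Cdkn2c (log2 fold change 2.89) and Rpa3 (1.90), a subunit of the single-strand DNA binding complex, were higher, and Ccnd2 (-3.14) and Cdkn1c (-2.47) lower. Brown adipocyte markers summed to 12574 to 18985 TPM in wt iBAT and 74.1 to 86.1 TPM in wt somites, and erythroid markers to 70.4 to 129 TPM and 8571 to 13174 TPM, and their part in these values was not tested. Somites at E12.5 serve both in this comparison and in the one between somite stages, as lung at E15.5 serves in 3 comparisons, so these are not independent of each other.

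The central comparison of the study was Hoxa5-/- against wt, and 0 of 48 members passed the test in any of the 7 contexts. The share of all tested genes that passed was also small: 0.0215% in somites at E10.5, 0.00529% in somites at E12.5, 0.0798% in lung at E12.5, 0.124% in lung at E15.5, 0.0156% in trachea, 0.594% in diaphragm and 0.00657% in iBAT. Members with an unadjusted p under 0.05 numbered 3, 1, 7, 3, 1, 3 and 0 in that order, against 12.7%, 3.24%, 8.01%, 6.32%, 6.70%, 13.03% and 2.47% of all genes. DESeq2 called 0 in 6 contexts and 1, Cenpf, in lung at E15.5. Of the 123 pathway genes 0 passed in any context. The median over members was -0.04, 0.04, -0.06, 0.02, 0.09, 0.13 and 0.15 on the log2 scale, with a median over all genes between -0.01 and 0.00 in each context. A difference below 0.2 on the log2 scale, in either direction, was found for 35, 48, 43, 45, 40, 36 and 39 of the 48 members, and the median SE was 0.11, 0.05, 0.07, 0.08, 0.12, 0.14 and 0.19. In somites at E12.5 the fitted values thus ran only from -0.09 (E2f2) to 0.14 (Hmmr).

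**Figure D4:**
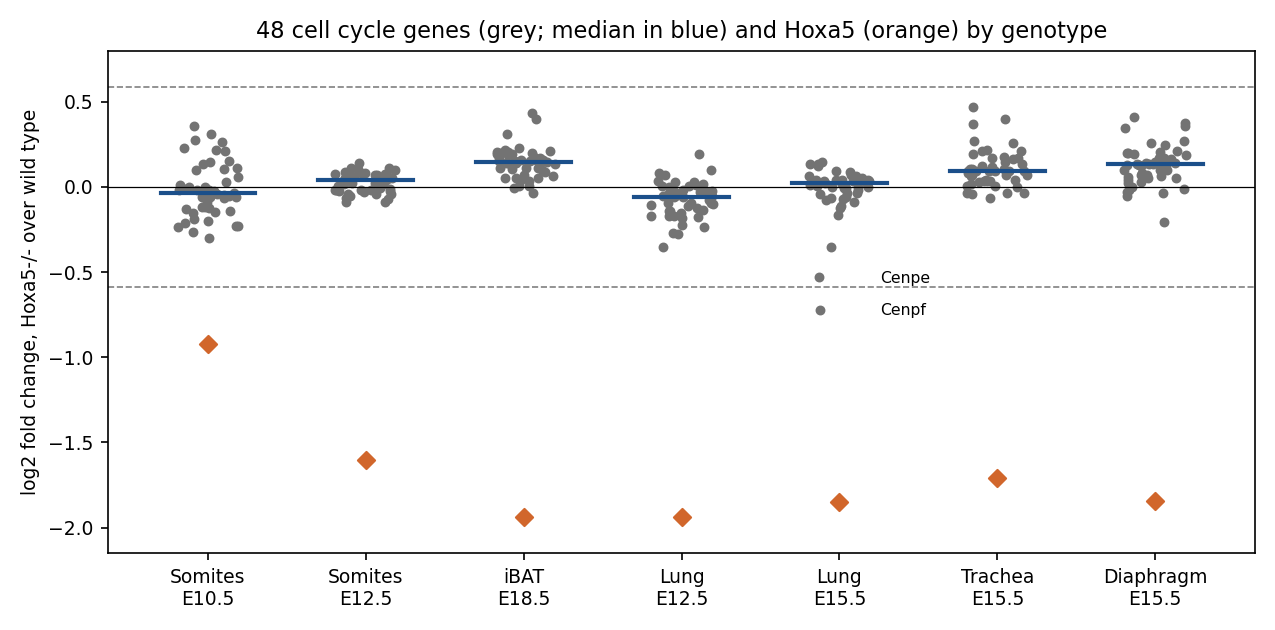
Fitted log2 fold change of each member in Hoxa5-/- against wt, by context, with 1 grey point per gene, the member median as a blue bar, Hoxa5 as an orange diamond and the 1.5-fold limits as dashed lines. No member passed the test, the medians lie between -0.06 and 0.15, and the lowest members are Cenpf and Cenpe in lung at E15.5.

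Single members can be read against their libraries. In the diaphragm, Ccne1 was at 168, 215, 201 and 156 TPM in Hoxa5-/- and 102, 156, 164 and 133 TPM in wt (log2 fold change 0.41, SE 0.13, adjusted p = 0.24, edgeR). E2f2 was at 70.3, 65.4, 97.3 and 83.6 TPM and 55.1, 56.2, 77.3 and 57.7 TPM (0.36, SE 0.15, adjusted p = 0.36). The 2 genes that were highest in this tissue thus had the larger values in the mutant, but their libraries overlapped. The direction was not particular to them. In the diaphragm 41 of 48 members had a fitted value above 0 and 7 below, against 48.8% of all genes below, and the fork genes reached up to 0.38. In this tissue replicate 3 of each genotype carried most hepatocyte RNA along with replicate 4 of Hoxa5-/-, at 10527 TPM. Tracheal epithelium markers summed to 12.2 to 126 TPM in wt diaphragm, with 6 of 6 above 1 TPM, and to 9.29 to 15.9 TPM in Hoxa5-/-, with 2 of 6. Lung epithelium markers summed to 81.7 to 627 TPM and 87.1 to 122 TPM, and cartilage markers to 20.3 to 24.9 TPM and 15.4 to 424 TPM. The part of these RNAs in the values was not tested. In somites at E10.5, Plk1 was at 168, 194 and 215 TPM in Hoxa5-/- and 114, 148, 197 and 125 TPM in wt (0.36, SE 0.15, adjusted p = 0.39), again overlapping. Ttk (-0.30, SE 0.11) and Tyms (-0.26, SE 0.11) were the lowest there. In iBAT Cdc6 was at 2.79, 4.37, 1.24, 1.88 and 2.88 TPM in Hoxa5-/- and 2.13, 1.82, 1.21, 2.26 and 2.55 TPM in wt (0.44, SE 0.26), and its second Hoxa5-/- library was the high one.

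Groups did not overlap for 2 of 48 members in somites at E12.5, 2 in lung at E12.5 and 3 in lung at E15.5. Over all tested genes the shares were 2.51%, 4.09% and 2.96%. In the other 4 contexts 0 members were without overlap. The shares of all genes there were 7.37% in somites at E10.5, 3.74% in trachea, 6.87% in diaphragm and 0.316% in iBAT. In somites at E12.5, Hmmr, which encodes a spindle assembly protein, was at 35.5, 38.3, 39.1 and 39.4 TPM in Hoxa5-/- and 35.4, 33.9, 33.9 and 35.4 TPM in wt (0.14, SE 0.05, adjusted p = 0.999, edgeR), and Ccnb1 at 104, 105, 107 and 107 TPM and 101, 90.3, 102 and 103 TPM (0.10, SE 0.05). The gap between the groups was small beside the levels. In lung at E12.5, Bub1b was at 159, 197, 195 and 200.1 TPM in Hoxa5-/- and 203, 209, 223 and 211 TPM in wt (-0.17, SE 0.05, adjusted p = 0.40), and Kif20a at 102, 145, 143 and 145 TPM and 146, 154, 150.4 and 152 TPM (-0.17, SE 0.07, adjusted p = 0.60). The lowest of both genes was Hoxa5-/- replicate 1, the library rich in erythroid RNA.

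In lung at E15.5 the kinetochore genes Cenpf and Cenpe and the chromosome coat gene Mki67 lay below wt in all 4 Hoxa5-/- libraries without passing the edgeR test. Cenpf was at 20.4, 30.9, 40.3 and 18.6 TPM in Hoxa5-/- and 48.9, 48.9, 48.7 and 45.2 TPM in wt (log2 fold change -0.72, SE 0.17, adjusted p = 0.26, edgeR). Cenpe was at 30.3, 45.9, 54.2 and 28.99 TPM and 61.4, 60.4, 60.1 and 62.7 TPM (-0.53, SE 0.14, adjusted p = 0.39). Mki67 was at 262, 309.5, 359 and 208 TPM and 387, 385, 373 and 399 TPM (-0.35, SE 0.09, adjusted p = 0.31). In each gene the first and 4th Hoxa5-/- libraries were the lowest and the third came near wt. DESeq2 gave Cenpf -0.71 (adjusted p = 0.0049), Cenpe -0.52 (adjusted p = 0.045) and Mki67 -0.34 (adjusted p = 0.022), of which Cenpf alone passed the fold minimum. Without Hoxa5-/- replicate 3 edgeR also called Cenpf, at -0.90 (adjusted p = 0.023). Top2a and Cdk1 stood near 0 in the same libraries. Top2a was at 348, 338, 319 and 265 TPM in Hoxa5-/- and 319, 329, 303 and 353 TPM in wt, with a fitted log2 fold change of 0.06 (SE 0.08), and Cdk1 stood at -0.04 (SE 0.05).

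**Figure D5:**
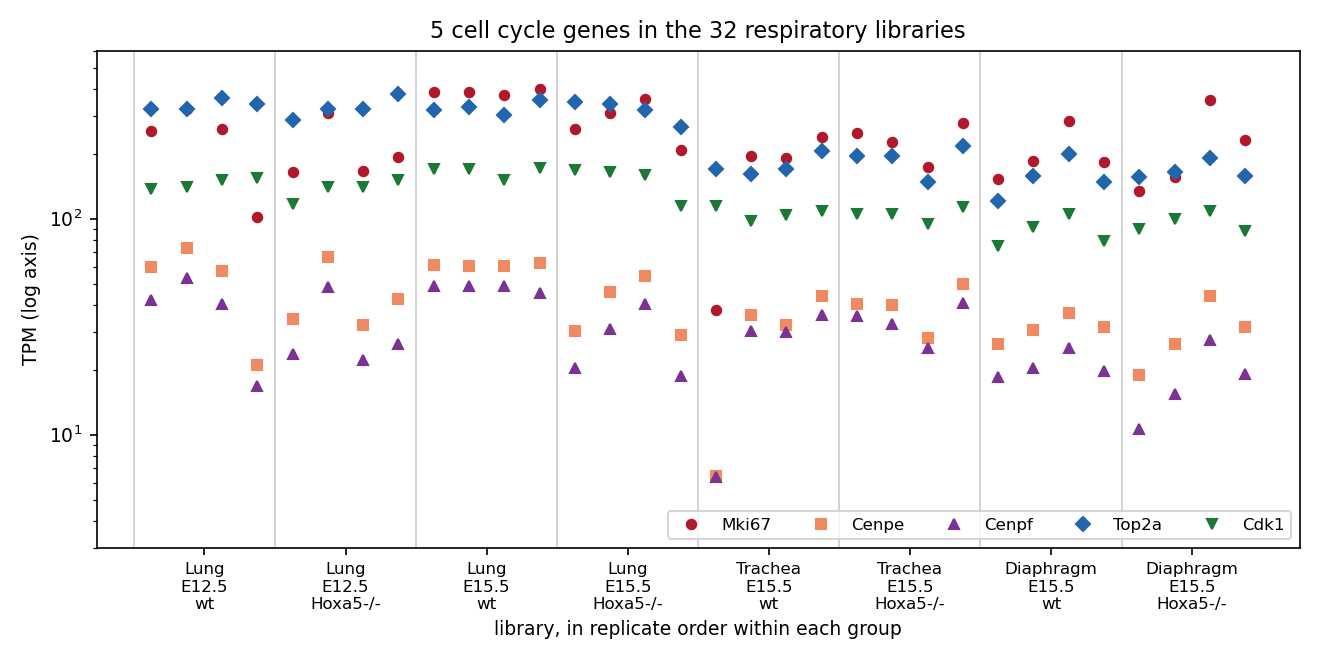
TPM of Mki67, Cenpe, Cenpf, Top2a and Cdk1 in the 32 libraries of lung, trachea and diaphragm, on a log axis, with libraries ordered by context and genotype. Mki67, Cenpe and Cenpf drop together in wt trachea replicate 1, wt lung at E12.5 replicate 4 and some Hoxa5-/- libraries. Top2a and Cdk1 stay near the level of the other libraries in these wt libraries and in Hoxa5-/- diaphragm replicate 1. They are lower as well in Hoxa5-/- lung at E15.5 replicate 4 and at E12.5 replicate 1.

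Low values of the same 3 genes also occurred in wt libraries. In wt trachea Cenpf was at 6.37, 30.1, 29.9 and 35.8 TPM, Cenpe at 6.44, 35.98, 32.3 and 43.8 TPM and Mki67 at 37.9, 195, 191 and 239 TPM, and replicate 1 was lowest in each. Against the other libraries of its tissue and stage, that library had log2 differences in TPM of -2.50 for Mki67, -2.19 for Cenpf and -2.39 for Cenpe, with -0.10 for Top2a and 0.14 for Cdk1. In wt lung at E12.5, replicate 4 stood at -1.17 for Mki67, -1.001 for Cenpf and -1.22 for Cenpe. Ranked from the most reduced gene in a library, Mki67, Cenpf and Cenpe were at places 3, 15 and 6 of 9881 in the trachea library and 3, 9 and 2 of 9026 in the lung library. They were at places 46, 3 and 7 of 8886 in Hoxa5-/- lung at E15.5 replicate 1 and 12, 2 and 6 of 8952 in Hoxa5-/- diaphragm replicate 1. In Hoxa5-/- lung at E15.5 replicate 4, the ribosomal RNA library, Top2a (-0.31) and Cdk1 (-0.53) were reduced together with Mki67 (-0.75), Cenpf (-1.03) and Cenpe (-0.83).

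These 3 genes share features of their transcripts. Cenpe, Mki67 and Cenpf have the highest share of the base A among the 48 members, at 36.5%, 34.7% and 34.1%. Their transcripts of 7910, 10270 and 11210 bases are also the longest among the members, with Top2a next at 5589. The median share of A was 26.4% over the members and 25.8% over 21623 genes with a protein-coding transcript. Hmmr (33.9%) and Top2a (31.5%) ranked next in A. In Hoxa5-/- against wt lung at E15.5, Top2a stood at 0.06 on the log2 scale. The spindle genes, Hmmr among them, ran from -0.0002 to 0.09 there. The 60 genes most reduced in wt trachea replicate 1 had a median of 33.1% A against 25.01% for all genes measured there, and those of wt lung at E12.5 replicate 4 had 32.2% against 25.1%. In Hoxa5-/- lung at E15.5 the value was 28.9% against 25.1% in replicate 1 and 22.2% against 25.06% in replicate 4. In Hoxa5-/- diaphragm replicate 1 it was 24.3% against 25.02%. The 3 genes were picked after their values were seen, so these figures are a description, and the part of base composition or of the library in the lung values was not tested.

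The stage and tissue differences were also compared between the genotypes directly, by interaction terms tested at an adjusted p under 0.05. Of 48 members 0 passed in any of 5 interactions, and DESeq2 called 0 in each. The share of all genes that passed was 0.0267% for the lung stages, 0.0147% for the somite stages, 0.00502% for trachea against lung, 0.439% for trachea against diaphragm and 0.73% for lung against diaphragm, and an unadjusted p under 0.05 was reached by 4, 9, 1, 0 and 0 members in that order, against 5.25%, 14.3%, 5.04%, 9.07% and 8.46% of all genes. In the somite stages the lowest unadjusted p-values belonged to Ttk, with a difference of effects of 0.35 on the log2 scale (SE 0.12), and Tyms (0.33, SE 0.12), both at an adjusted p of 0.33 (edgeR). Leaving out wt somites at E10.5 replicate 3 brought 6 members past the threshold, along with 12.6% of all 20419 genes: Gmnn (0.46), Ttk (0.43), Tyms (0.43), Cdk1 (0.41), Ccnb1 (0.38) and Nusap1 (0.29). For Cdk1 that library was the lowest of the 4, at 96.2 TPM in a range of 96.2 to 124 TPM. The interaction for Cenpf between trachea and lung was 1.09 (SE 0.51, adjusted p = 0.98), and it was 0.76 without wt trachea replicate 1.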

How the data were processed

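Count tables of genes per library and TPM tables were deposited by the authors, who, per the labels and the study's methods, isolated polyA RNA, trimmed reads with Trim Galore 0.6.5, aligned them to GRCm39 with STAR 2.7.9a and counted them with featureCounts 2.0.3 on Ensembl release 109 (curated for Hox genes). TPM is relative within a library, so 1 abundant RNA lowers the TPM of all others. The strand setting is not given in the sources used here, and 13 members share exon bases with another gene of at least 1 TPM. Members and gene lists were chosen with earlier results of these data known, and the pathway lists are background, not independent evidence. The 2573 gene names spelled with another separator in 1 table were matched.

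Counts were tested with edgeR 4.0.16 (R 4.3.3, TMM, quasi-likelihood, Benjamini-Hochberg) within each table on genes with a mean of at least 1 TPM in either group, with DESeq2 1.42.0 as the alternative, and called at an adjusted p under 0.05 and a fold of at least 1.5. SE is the log2 fold change over the root of F. Depth was 18369905 to 72991481 counts per library. Groups came from the labels. Any member may be named, with the role leads (Mki67, Ccne1, E2f1, Mcm2, Cdt1, Rrm2, Ccnb1, Cdk1, Foxm1, Plk1, Aurkb, Kif11) and up to 6 called rises and 6 falls per comparison, and up to 3 of each per pathway list. Replicate numbers were taken as pairs where deviations of every same-numbered pair correlated above 0.1, which only wt trachea and lung met (4 pairs, r = 0.11 to 0.45). Alternatives were other scalings and filters, no fold minimum, a replicate block, 1 fit per table and each library left out. The edgeR and DESeq2 fits were tested on simulated data.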

Additional observations from a re-analysis of the deposited data

Results flagged for a closer look

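Among 17 genes checked in 13 groups of 4 or 5 libraries (221 checks), 13 times a single library lay far from the rest of its group by Dixon's ratio. Chance would mark about 1 in 20 independent groups. The 17 genes were checked in the same libraries, so the checks are not independent, and the part of chance in these flags was not tested. In Hoxa5-/- lung at E12.5, Ccne1 was at 65.6 TPM in replicate 1, the library rich in erythroid RNA, against 115 to 122 TPM in the other 3, and Cenpf at 48.1 TPM in replicate 2 against 22.2 to 26.3 TPM. In Hoxa5-/- lung at E15.5, E2f1 was at 48.6 TPM in replicate 4, the library rich in Rn18s-rs5, against 72.2 to 74.9 TPM.

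Wt lung at E15.5 replicate 3 was apart in 3 genes: Rrm2 at 176 TPM against 224 to 234 TPM, Cdk1 at 152 TPM against 169 to 172 TPM, and E2f2 at 44.1 TPM against 29.9 to 31.3 TPM. In the same group Cenpf was at 45.2 TPM in replicate 4 against 48.7 to 48.9 TPM. Diaphragm replicate 3, high in hepatocyte RNA in both genotypes, was high for E2f2 in wt, at 77.3 TPM against 55.1 to 57.7 TPM, and in Hoxa5-/- for Ccnb1, at 81.9 TPM against 62.0 to 65.1 TPM, and Kif11, at 70.2 TPM against 50.4 to 53.04 TPM. In trachea, Kif11 was at 70.7 TPM in wt replicate 4 against 51.2 to 52.96 TPM, and Gmnn at 29.6 TPM in Hoxa5-/- replicate 3 against 43.4 to 45.3 TPM. In iBAT, Ccnb1 was at 26.8 TPM in Hoxa5-/- replicate 2 against 10.2 to 14.4 TPM. Causes were not tested.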

How the results depend on the processing

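No member that passed a test reversed under the other settings tried. Values near 0 did change sign: with totals scaling the member median went from 0.21 to -0.01 for diaphragm against trachea and from 0.02 to -0.01 for Hoxa5-/- against wt in lung at E15.5. Members called under every alternative numbered 35 of 41 in wt somites, 34 of 38 in Hoxa5-/- somites, 39 of 43 in trachea against lung, 24 of 31 and 2 of 3 in diaphragm against lung and trachea, 46 of 47 in iBAT and 2 of 2 in wt lung. The genotype count in lung at E15.5 went from 0 to 1 with DESeq2 and to 1 with the replicate block (Cenpf), and ran from 0 to 1 with a library left out. Without a fold minimum, 25 members were called between the wt lung stages, 12 between the Hoxa5-/- lung stages and 12 between diaphragm and trachea, against 50.2%, 36.02% and 49.01% of all genes. The Hoxa5-/- lung stages gave 1 with all libraries of the table in 1 fit and 0 to 2 with a library left out, and the somite interaction 0 to 6. Differences in the member score moved by more than 1 SD with the median over members, to -0.16 for the wt lung stages, -0.73 for wt and -0.66 for Hoxa5-/- somites. On log2 CPM with TMM the score difference was -0.87 in wt somites, -0.59 for diaphragm against lung, 0.31 for diaphragm against trachea (-0.03 on TPM) and -1.59 for iBAT against somites. The replicate block changed no other count by over 1.5 times. Blocking iBAT on the number that opens its sample names gave 0 genotype calls. Outside iBAT the libraries share only a replicate number, and wt trachea and lung were taken as pairs by correlation alone. Causes were not tested. The lowest member count in any library was 42.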
